A study of Mus musculus with 2 samples.

Results

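The P2 nonsensory epithelium comprised 740 of the 4081 cells that passed the quality filter in the library of postnatal day 2 (P2) mouse utricle. Its members were chosen by their own measured counts. A cell needed at least 1 UMI (unique molecular identifier, a count of 1 captured RNA molecule) of the epithelial gene Epcam and at least 2 UMIs of Lmx1a and Meis2 together. It could hold at most 1 UMI of Sox2 and at most 1 of Pou4f3, and less than 10 UMIs of Zpld1 per 10000. The levels of these 6 genes in the members are therefore a description of the choice.

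Single-cell RNA-seq with 10x 3′ chemistry was run on utricles of mice of genotype WT at 2 ages, P2 and embryonic day 14 (E14), with 1 library at each age, so that age and library cannot be told apart. The methods give a C57BL/6J background for the mice, and no treatment is named. They describe inner ears taken from several embryos or from postnatal animals of either sex, without tying them to a library. At both ages the sensory epithelium was freed with thermolysin, so the tissue is labelled sensory epithelium and the nonsensory cells are those that came off with it. The files hold 6251 barcodes at P2 and 15636 at E14, 21887 in all, and cells under 500 genes or 1000 UMIs, or with over 15% of UMIs from mitochondrial genes, were left out. The members were compared with 952 P2 cells of at least 2 Sox2 UMIs and at most 1 Pou4f3 UMI, called P2 Sox2 cells below, and with 1274 E14 cells under the rule of the members, of 11588 kept at that age. With 1 library per age and cells that are no replicates, no test was possible. Intervals are 95% intervals that cover counting error alone, exact Poisson for levels, exact binomial for shares and exact conditional binomial for ratios.

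The nonsensory epithelium surrounds the sensory patch of the utricle. Its transitional cells border the patch, and its dark cells secrete potassium into the endolymph, the fluid that bathes the hair bundles. Nonsensory cells also exchange chloride and bicarbonate and release proteins of the otoconia, the calcium carbonate crystals that load the sensory patch. The supporting cells of the patch, by contrast, express Sox2 and receive Notch signals from hair cells.

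The members held 10680868 UMIs, with a median of 11237 and a range of 1024 to 107208 per cell, beside medians of 10792 in P2 Sox2 cells and 11364 in E14 nonsensory cells. The whole libraries held 57003553 UMIs at P2 and 122892080 at E14, and 23 barcodes occurred in both. None of these 23 was a member at both ages. Among the highest doublet scores were 1.22% of the members, 3.26% of P2 Sox2 cells and 14.5% of E14 nonsensory cells. The cut for these scores was set by library and took 5.00% of all kept cells at P2 and 12.5% at E14. In the members, 6 of 7 red blood cell markers were found but together reached 12.6 UMIs per 1000000 UMIs (CPM). Of the 12 mesenchymal markers, 1 reached 10 CPM, and macrophage markers summed to 2.15 CPM, with Csf1r and Aif1 at 0. Of 6 markers of proton-secreting cells, 3 were found, together at 10.3 CPM, beside 4.65 CPM in P2 Sox2 cells. The most abundant was Atp6v1b1 at 5.52 CPM, while Foxi1, which defines these cells, was at 0. Of 6 melanocyte genes, Pmel and Mitf were found at 5.62 and 5.24 CPM, and Tyr, Tyrp1, Dct and Mlana were at 0.

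The 4 markers of the label were present at unequal levels. Meis2, a homeobox factor, was found in 737 of the 740 members at 491 CPM, beside 239.6 CPM in P2 Sox2 cells and 288.5 CPM in E14 nonsensory cells. Lmx1a, a LIM homeobox factor of the nonsensory otic wall, was found in 186 members at 24.2 CPM, beside 13.3 CPM in P2 Sox2 cells and 71.1 CPM in E14 nonsensory cells. The choice thus rested mostly on Meis2, since 554 members passed through Meis2 alone. Oc90, the main protein of the otoconia and not part of the rule, was found in 95.4% of members at 2482 CPM. It was found in 85.6% of P2 Sox2 cells at 1838 CPM and in 99.2% of E14 nonsensory cells at 10602 CPM. Slc26a4 (pendrin), an exchanger of chloride for bicarbonate, stood at 177.8 CPM, beside 85.5 CPM in P2 Sox2 cells, 19.6 CPM in E14 nonsensory cells and 18.6 CPM in P2 hair cells, which were taken as 1163 P2 cells of at least 2 Pou4f3 UMIs. Oc90 was found in 66.55% of these hair cells too, at 380.9 CPM, so its presence alone does not mark the members. The same holds for Meis2, which was found in 73.8% of P2 Sox2 cells and 78.7% of these hair cells.

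Many members lay near the limits of the rule. The sum of Lmx1a and Meis2 was 2 in 120 members, 3 in 117 and higher in 503, and 286 cells that met the other limits had 1 such UMI. Sox2 was at 0 in 543 members and at 1 in 197, while 89 cells stood outside with 2, 49 with 3 and 412 with 4 or more. These outside cells are among the P2 Sox2 cells. Those with 2 had Slc26a4 at 195.2 CPM and Oc90 at 2686 CPM, beside 196.3 and 2345 CPM in members with 1. Their level of Gata2 was lower, at 65.1 against 109.7 CPM, and that of the tectorial matrix gene Tectb higher, at 511.7 against 56.7 CPM. Pou4f3 was at 1 in 95 members, and 18 cells stood outside with 2. Zpld1, a crista gene, was at 0 in 699 members and between 5 and 10 per 10000 in 6, and 15 cells stood outside between 10 and 20.

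The 740 members were grouped by expression into 11 clusters of 19 to 195 cells. These groups were drawn from the same counts, so the genes that lead a cluster describe it and are no test. The genes of 3 clusters, numbers 6, 8 and 9, went against the label. Cluster 6 (34 cells, median 5142 UMIs) was led by Anks1b, Ebf1 and the growth factor Fgf3. In it 8 of 12 markers of macular supporting cells stood out against the other members. Markers not counted in this way were not absent, and Otol1 was highest in cluster 6 at 2219 CPM. Cluster 9 (22 cells, median 4462 UMIs and 9.35% mitochondrial) was led by hair cell genes. In it 13 of 16 hair cell markers stood out, and Xirp2, which binds actin, had 781.1 CPM. Cluster 8 (22 cells) had a median of 2188 UMIs, 21.7% of that of all P2 cells, was led by the tectorial matrix gene Tectb at 1246 CPM and stays unnamed. Together these were 78 members, 10.54% of the total, with 398185 UMIs. The other 662 members held Oc90 at 2507 CPM and Slc26a4 at 182.5 CPM.

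**Figure D1:**
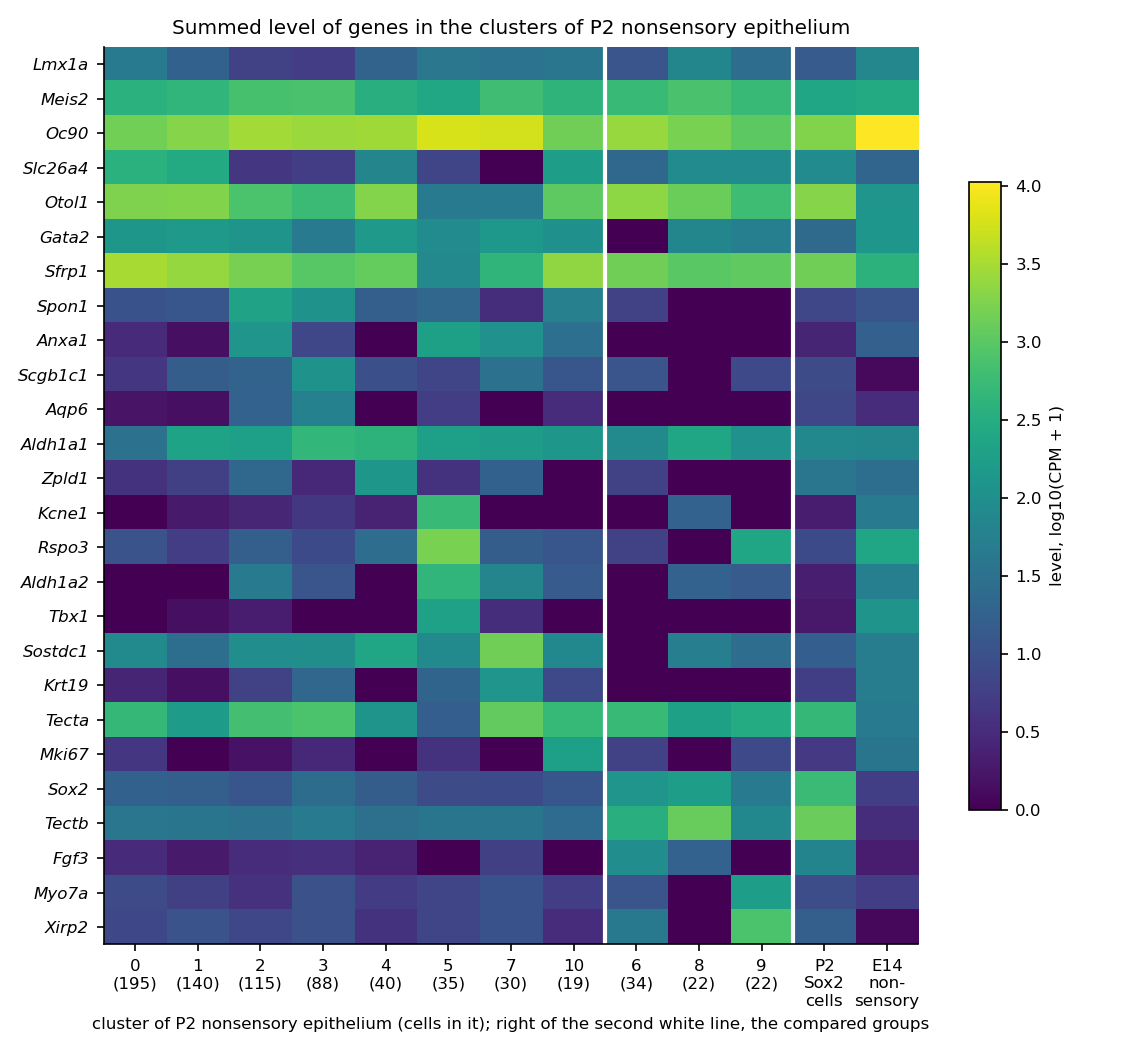
Summed level of 26 genes (rows) as log10(CPM + 1) in the 11 clusters of P2 nonsensory epithelium (columns, with the number of cells), in P2 Sox2 cells and in E14 nonsensory cells. Slc26a4 is high in clusters 0 and 1, Kcne1, Rspo3 and Tbx1 in cluster 5, and Tectb or hair cell genes in clusters 6, 8 and 9, between the white lines.

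Slc26a4 and Oc90 were highest in different clusters. Clusters 0 and 1, with 195 and 140 cells, held Slc26a4 at 372.5 and 290.5 CPM, while clusters 2, 3 and 5 had 3.34, 4.45 and 5.90 CPM and cluster 7 had none. Oc90 was highest in cluster 5 at 6134 CPM and in cluster 7 at 5661 CPM, beside 1470 CPM in cluster 0 and 1933 CPM in cluster 1, and lowest in cluster 9 at 1008 CPM. Per cell, the median of Slc26a4 was 3.33 UMIs per 10000 in cluster 0 and 0 in clusters 2, 3, 5 and 7, and the median of Oc90 was 11.2 per 10000 in cluster 0 and 58.2 in cluster 7. The levels of these genes were not simply opposed, since the Oc90 median was 15.4 per 10000 in cluster 3 and 17.1 in cluster 1, and clusters 6 and 9, with a Slc26a4 median of 0, had Oc90 medians of 7.84 and 2.59. Otol1, the collagen-like scaffold protein of the otoconia, followed Slc26a4 in part, with medians of 16.6, 17.2 and 19.7 per 10000 in clusters 0, 1 and 4 and of 0.413 and 0 in clusters 5 and 7.

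**Figure D2:**
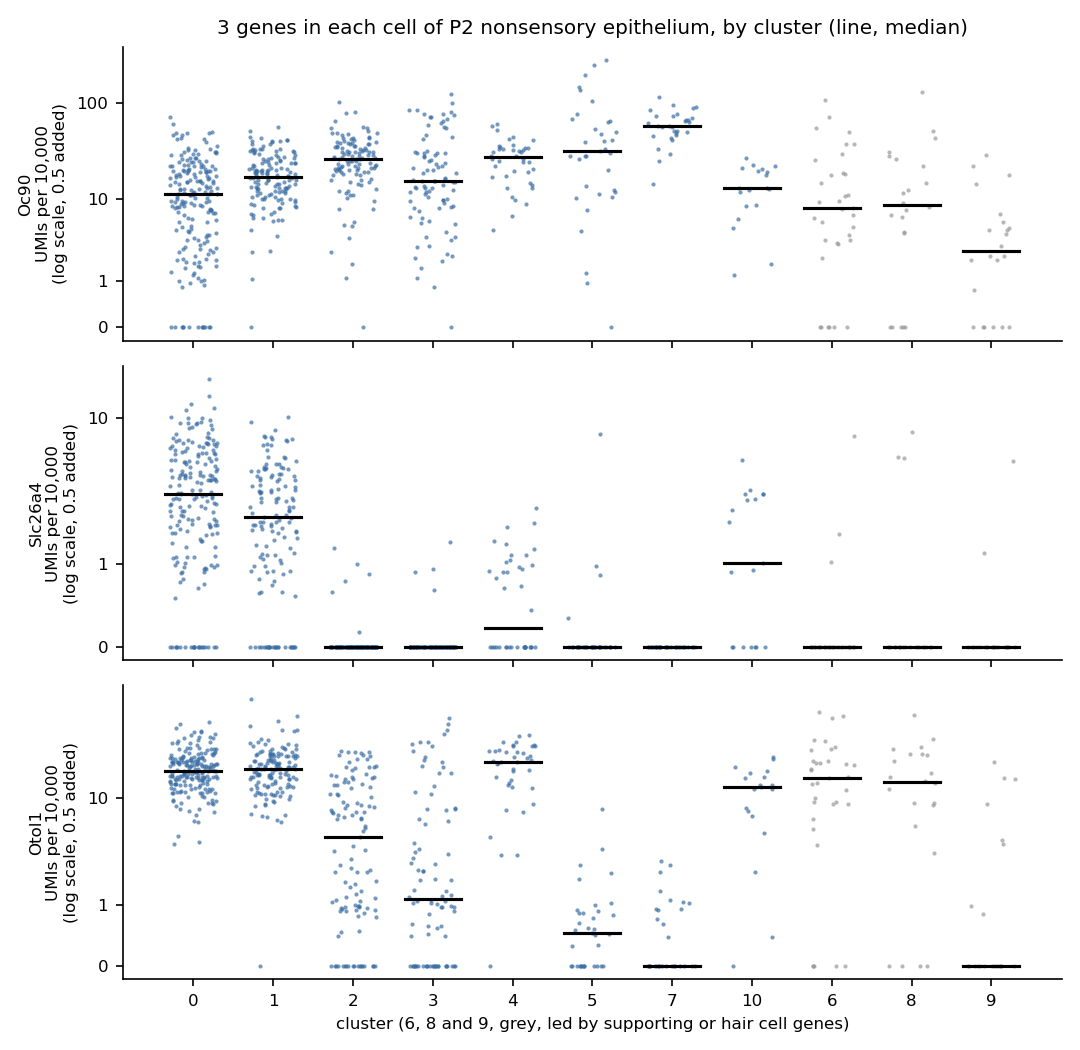
UMIs of Oc90, Slc26a4 and Otol1 per 10000 UMIs (log scale with 0.5 added) in each of the 740 members, by cluster, with the median as a line. Slc26a4 lies above 0 in most cells of clusters 0 and 1 and at 0 in nearly all cells of clusters 2, 3, 5 and 7, whereas Oc90 is highest in clusters 5 and 7.

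To compare shares of cells, each cell was thinned to 7000 UMIs, which kept 651 members and left out 89. Slc26a4 was then found in 288 of 651 members (44.2%, interval 40.4 to 48.2), in 26.3% of 719 P2 Sox2 cells, in 9.43% of 1124 E14 nonsensory cells and in 7.13% of 982 P2 hair cells, whose median depth before thinning was 16826 UMIs. Without thinning the shares were 46.5%, 31.0%, 12.4% and 15.1%. Otol1 was found in 284 of the 288 members with Slc26a4 (98.6%, interval 96.5 to 99.6) and in 263 of the 363 without it (72.5%, interval 67.6 to 77.0). Slc26a4 was found in 267 of 626 members with Oc90 (42.7%) and in 21 of 25 without it. Gata2, a zinc finger factor of the otic epithelium, was found in 52.1% of thinned members, beside 10.3% of P2 Sox2 cells, 50.3% of E14 nonsensory cells and 1.83% of P2 hair cells.

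The clusters with Slc26a4 had further genes apart. Cluster 0 was led by Penk, the precursor of enkephalin peptides, at 212.6 CPM against 14.0 CPM in the other members. Ntrk2, the receptor of brain-derived neurotrophic factor, stood at 57.3 CPM against 3.54 CPM, and Alkal2, a ligand of the receptor kinase ALK, at 52.4 CPM against 5.51 CPM. In cluster 1 the cytokine gene Il33 led with 138.7 CPM against 29.4 CPM, Ucma, known as a secreted protein of cartilage, reached 663.1 CPM against 210.5 CPM, and Ret, the signalling receptor for glial cell line-derived neurotrophic factor, 40.0 CPM against 8.80 CPM. P2 Sox2 cells held Il33 at 71.9 CPM, above the other members, Ucma at 143.8 CPM and Ret at 3.94 CPM. Sfrp1, a secreted Wnt inhibitor, was highest in these clusters, at 3116 CPM in cluster 0 and 2480 CPM in cluster 1, and lowest in cluster 5 at 78.2 CPM. Aldh1a3, which makes retinoic acid, reached 913.1 CPM in cluster 0, 1276 CPM in cluster 1 and 1114 CPM in cluster 4, which held Slc26a4 at 66.5 CPM.

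Clusters 2 and 3, of 115 and 88 cells, held Oc90 with almost no Slc26a4. Cluster 2 was led by Spon1, a secreted matrix protein, at 210.4 CPM against 25.6 CPM in the other members, and by the annexin gene Anxa1 at 122.5 CPM against 23.1 CPM. Cluster 3 was led by the secretoglobin gene Scgb1c1 at 113.0 CPM against 10.8 CPM and by Aqp6, an aquaporin that also passes anions, at 56.9 CPM against 3.98 CPM. It held Itih5, of the family that binds hyaluronan, at 382.5 CPM against 70.3 CPM. Vim (vimentin, an intermediate filament) was highest in cluster 3 at 899.4 CPM, as were Aldh1a1 and Rdh10, both of retinoic acid synthesis, at 467 and 394.1 CPM. Bmp3, a ligand of the BMP family, was highest there as well at 295.3 CPM. The gel matrix gene Tecta stood at 654.6 CPM in cluster 2 and 773.1 CPM in cluster 3, beside 169.9 CPM in cluster 1.

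Clusters 4, 7 and 10 were smaller and each had its own leading genes. Cluster 4 (40 cells) was led by the serine protease gene Prss56, at 141.5 CPM against 1.81 CPM in the other members, and held Tmem52 at 663.8 CPM against 68.5 CPM and the Wnt ligand gene Wnt6 at 69.4 CPM against 1.70 CPM. It had 95 of the 166 Zpld1 UMIs of the members, although the rule limits this gene, and the highest levels of Id1 and Id3, targets of BMP signals, at 1227 and 1319 CPM. Cluster 7 (30 cells) was led by the collagen gene Col14a1, at 380.7 CPM against 8.29 CPM. Col1a1 came next at 144.2 CPM against 1.95 CPM, with 61 of the 81 UMIs of the members. It was the only mesenchymal marker to stand out in cluster 7. Sostdc1, a secreted inhibitor of BMP and Wnt signals, was found in all 30 cells of the cluster at 1423 CPM against 82.2 CPM. The keratin gene Krt19 reached 123 CPM and Tecta 1128 CPM there. Cluster 10 (19 cells, median 20027 UMIs) was led by genes of dividing cells, with Cenpf at 398.3 CPM against 3.62 CPM and Mki67 at 189.2 CPM against 1.66 CPM.

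In cluster 5 (35 cells) 7 of 9 dark cell markers stood out against the other members. This cluster was split by whether a cell had a Kcne1 UMI or a Wnt3 UMI. The levels of Kcne1 and Wnt3 in the sets therefore describe the choice. The 14 cells with a Kcne1 UMI had 414 of the cluster's 418 Slc12a2 UMIs and 79 of its 80 Esrrb UMIs. In these 14 cells Kcne1, the accessory subunit of the channel that secretes potassium into the endolymph, had 1 to 70 UMIs per cell and 975 CPM over the set. The same 14 cells held Kcnq1, the pore of that channel, at 114.4 CPM, Slc12a2, the cotransporter that loads dark cells with potassium, at 1127 CPM, and Esrrb, a nuclear receptor required for potassium-secreting cells of the mouse ear, at 215.1 CPM and in every cell. They also held Rspo3, an enhancer of Wnt signals, at 2949 CPM, Aldh1a2, which makes retinoic acid, at 825.2 CPM, and Spp1 (osteopontin) at 3167 CPM. No Wnt3 UMI was found in these 14 cells, which allows a level of up to 10.1 CPM.

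The 6 cells of cluster 5 chosen for a Wnt3 UMI had 12 to 60 Wnt3 UMIs per cell, 1901 CPM over the set. These cells held the Wnt inhibitor gene Sfrp5 at 4465 CPM, with 28 to 127 UMIs per cell, and had no UMI of Kcne1, Esrrb, Slc12a2, Rspo3 or Aldh1a2. The remaining 15 cells held neither Kcne1 nor Wnt3 and had Oc90 at 9809 CPM, Anxa1 at 500.8 CPM and Tbx1, a T-box factor of the otic wall, at 257.2 CPM. Tbx1 was common to all 3 sets, with 185.2 CPM in the cells with Kcne1 and 135.0 CPM in those with Wnt3, and so was the claudin gene Cldn8 at 310.5, 213.7 and 351.9 CPM. The split was made after the values were seen, and the cells with Kcne1 were the deepest, with a median of 22772 UMIs, against 12522 in those with Wnt3 and 11632 in the rest. Over all 740 members, 24 cells had a Kcne1 UMI, 7 had a Wnt3 UMI and none had both, and over the 1274 E14 nonsensory cells the counts were 190, 120 and 4.

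The comparison with P2 Sox2 cells asked how the members differ from cells of the same library with at least 2 Sox2 UMIs. Some of those cells met the other limits of the rule. The members held more of Aldh1a2, Sostdc1, Wif1 and Cldn4, and less of Hes5, Hes1, Gjb6 and Tectb. Of 10958 genes with at least 100 UMIs in both groups together, 463 (4.23%) were at least 2-fold higher in the members and 502 (4.58%) at least 2-fold lower, with a median log2 ratio of 0.03. Without clusters 6, 8 and 9 the counts were 467 and 546. The shares of 4.23% and 4.58% are the background for each list set against P2 Sox2 cells, and nothing is read from the genes of the rule. Sox2 itself, a gene of the rule, stood at 18.4 CPM in the members and 545.5 CPM in P2 Sox2 cells.

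**Figure D3:**
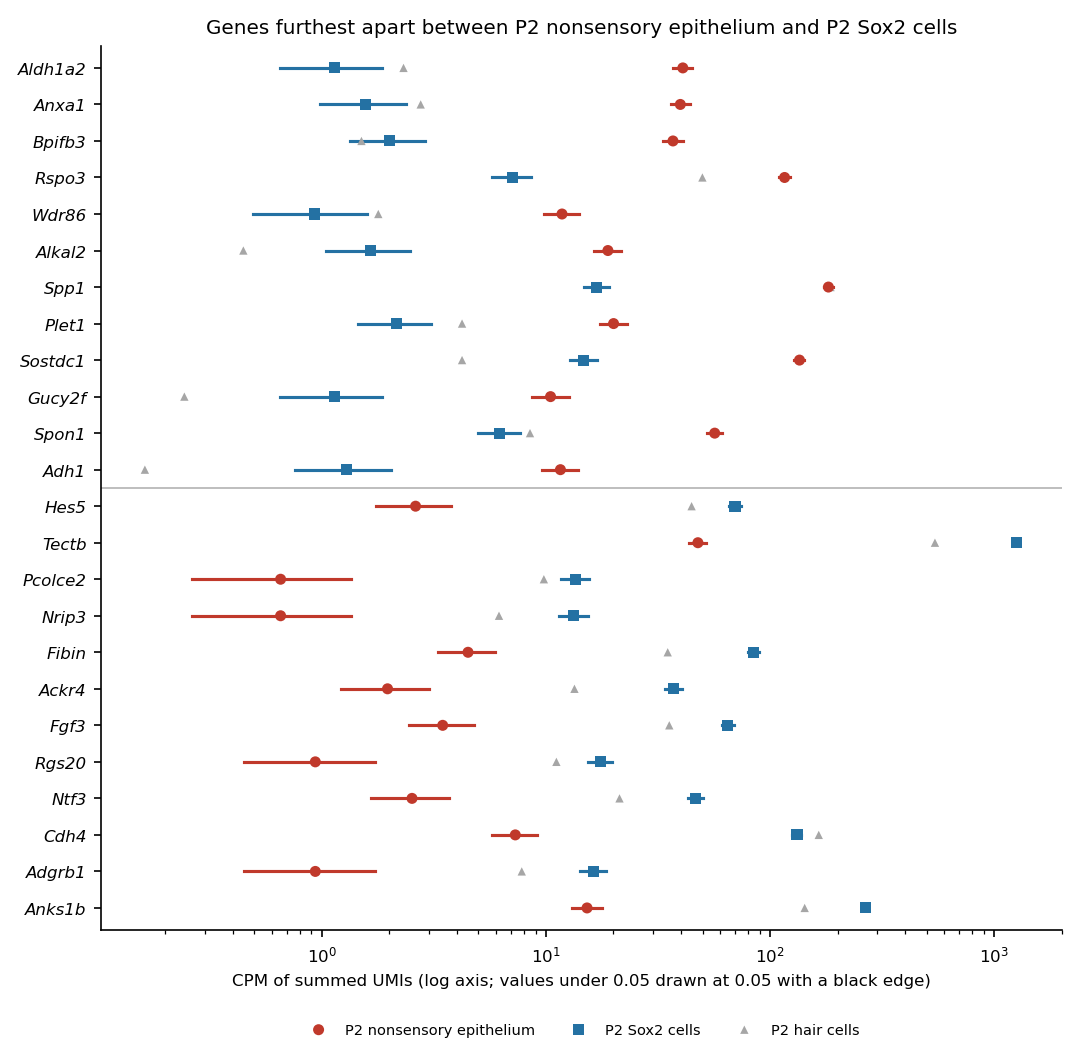
CPM (log axis) of the 12 genes with the highest and the 12 with the lowest ratio of P2 nonsensory epithelium (circles) over P2 Sox2 cells (squares), with 95% Poisson intervals, and P2 hair cells as triangles. Aldh1a2 leads the upper genes at 40.8 against 1.15 CPM, and Hes5 the lower ones at 2.62 against 69.8 CPM.

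Among genes found in at least 10% of members, the highest ratio was that of Aldh1a2, at 40.8 CPM in the members and 1.15 CPM in P2 Sox2 cells, a ratio of 35.7 (interval 21.7 to 63.0). Anxa1 had 39.8 and 1.57 CPM, and Rspo3 had 116.1 and 7.08 CPM, a ratio of 16.4, with 49.9 CPM in P2 hair cells. Much of this came from few cells. Cluster 5 gave 303 of the 436 Aldh1a2 UMIs and 1099 of the 1240 Rspo3 UMIs, and without its 35 cells the ratios were 11.6 and 1.99. Other leading genes were spread differently. Alkal2 (18.9 against 1.65 CPM) had 160 of its 202 UMIs in cluster 0, Spon1 (56.6 against 6.22 CPM) had 378 of 605 in cluster 2, and Sostdc1 (135.3 against 14.7 CPM, a ratio of 9.18 with interval 7.93 to 10.7) had 602 of 1445 in cluster 7. Spp1 stood at 182.1 against 16.9 CPM, a ratio of 10.8 that was 4.58 without cluster 5. P2 hair cells held 186.1 CPM of it, and the hair cell-led cluster 9 gave 631 of its 1945 UMIs.

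Hes5, a Notch target and repressor of hair cell fate, had the lowest ratio of the genes found in at least 10% of P2 Sox2 cells, with 2.62 CPM in the members and 69.8 CPM in P2 Sox2 cells (ratio 0.0376, interval 0.0248 to 0.0547). Tectb, a protein of the otolithic membrane, followed with 47.7 CPM in the members against 1262 CPM. The growth factor gene Fgf3 had 3.46 CPM in the members against 64.9 CPM, the neurotrophin gene Ntf3 2.53 CPM against 46.7 CPM, and the cadherin gene Cdh4 7.30 CPM against 131.9 CPM. Part of what the members held of these genes lay in the clusters that went against the label. Cluster 6 had 18 of the 37 Fgf3 UMIs and 19 of the 78 Cdh4 UMIs, the Fgf3 ratio was 0.0270 without clusters 6, 8 and 9 and 0.0534 with them, and clusters 6 and 8 had Tectb at 341.0 and 1246 CPM.

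**Figure D4:**
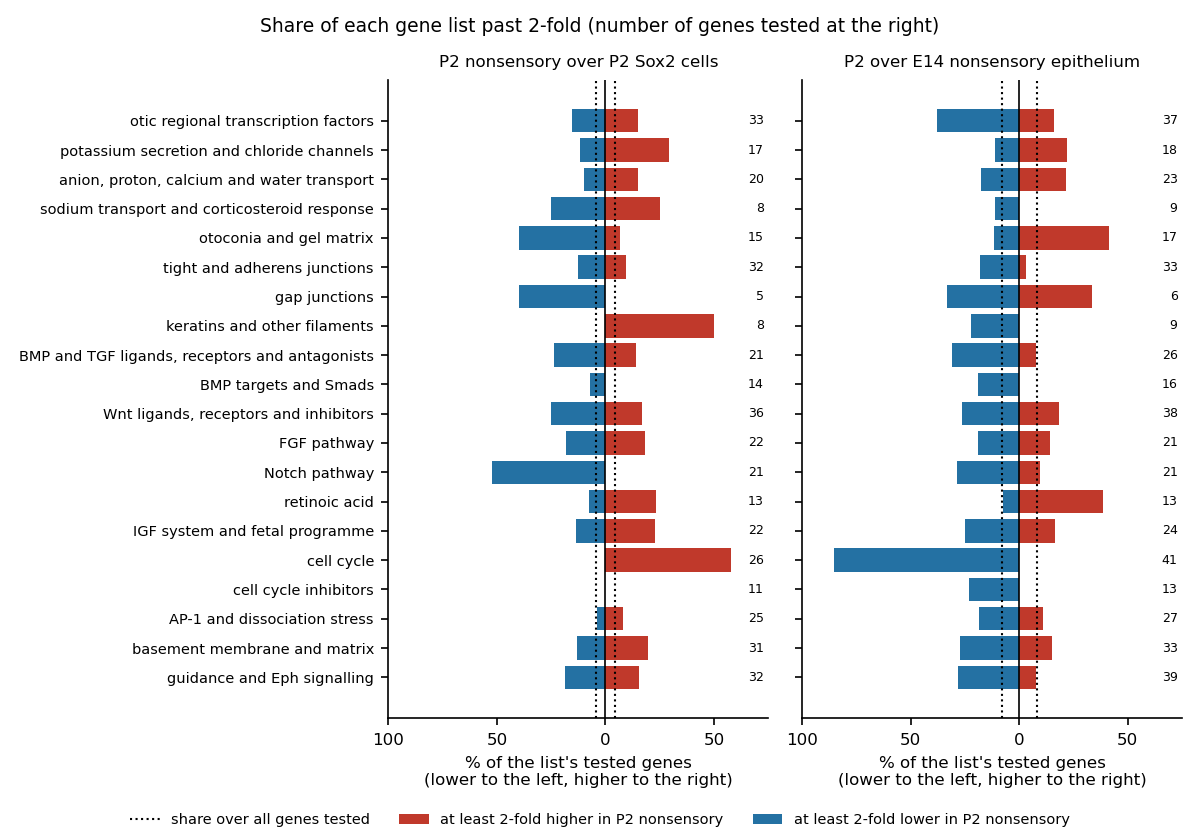
Percent of the tested genes of 20 lists that were at least 2-fold higher (right of 0) or lower (left of 0) in P2 nonsensory epithelium, against P2 Sox2 cells (left panel) and E14 nonsensory cells (right panel), with the number tested and the share over all genes as dotted lines. The Notch list lies to the left in the left panel, with 11 of 21 genes lower, and the cell cycle list to the left in the right panel, with 35 of 41 lower.

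Notch pathway genes were lower in the members as a list. Of 21 tested, 11 were at least 2-fold lower and none higher, with a median log2 ratio of -1.43 beside 0.03 over all genes. The targets Hes1 (29.7 CPM against 307.4 CPM in P2 Sox2 cells), Heyl (6.09 against 70.3 CPM) and Hey1 (30.4 against 122.4 CPM) were among them, as was Lfng, which modifies Notch receptors, at 5.15 against 75.5 CPM. The receptor Notch1 stood at 151.0 CPM in the members and 178.5 CPM in P2 Sox2 cells, and the factor Rbpj that binds DNA for the pathway at 49.0 and 49.9 CPM, so neither passed 2-fold. The number of lower genes was 10 to 14 under every alternative tried.

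Of the genes that move ions, those of potassium secretion were split. In that list 5 of 17 were at least 2-fold higher and 2 lower, with a median log2 ratio of 0.07. Kcne1 had 34.5 CPM in the members against 1.002 CPM, and 358 of the 369 Kcne1 UMIs came from cluster 5. Without that cluster the Kcne1 ratio was 1.098. Atp1b1, a subunit of the sodium pump, was spread more widely, with 600.0 CPM in the members against 253.8 CPM, and had its lowest level in cluster 5. Its regulator Fxyd3 had 157.5 against 67.3 CPM. Kcnj10, an inward rectifier channel, was lower at 13.8 against 28.4 CPM, a ratio of 0.484, and without cluster 5 its ratio was 0.510.

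In the list of anion, proton, calcium and water transport, 3 of 20 genes were at least 2-fold higher and 2 lower, with a median of -0.17. Slc26a4 had a ratio of 2.08 (interval 1.93 to 2.24), close to the limit, and it was 1.91 where Lmx1a and Meis2 summed to at least 4 and 1.73 without cells of 2 or more hair cell UMIs. The bicarbonate cotransporter gene Slc4a4 had 13.6 CPM in the members against 43.1 CPM, and the water channel gene Aqp4 10.9 against 24.8 CPM, a ratio of 0.438 that was 0.725 when the rule was applied to thinned cells. In the sodium list, Scnn1b, a subunit of the epithelial sodium channel, was higher at 9.36 against 2.07 CPM, and so was Sgk1, the kinase that raises its activity, at 45.2 against 19.6 CPM, a ratio of 2.31 that was 1.80 without cluster 5. The ATP-gated channel genes P2rx2 and P2rx4 were lower, and 4 of the 8 tested lay within 2-fold.

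Among otoconia and gel matrix genes 1 of 15 was at least 2-fold higher (Spp1) and 6 lower, among them Zpld1, a gene of the rule, with a median of -0.76. Oc90 had a ratio of 1.35 (interval 1.33 to 1.37) and Otol1 of 0.640, with 1260 CPM in the members against 1970 CPM. Sparcl1, a matrix protein that binds calcium, had 73.03 against 708.8 CPM, and Otop1, the proton channel needed for otoconia, 7.96 against 58.2 CPM. Both connexin genes of supporting cells were lower, Gjb6 with 7.96 CPM in the members against 104.7 CPM and Gjb2 with 24.2 against 132.1 CPM.

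Genes of the epithelial barrier differed one by one. Of 32 junction genes, 3 were at least 2-fold higher, all claudins, and 4 lower, with a median of -0.06. Cldn11 had 14.2 CPM in the members against 1.72 CPM, Cldn4 102.8 against 24.97 CPM, and Cldn8 67.5 against 17.4 CPM, while Cldn3 was the most abundant of the named claudins at 800.2 and 748.2 CPM. Of 8 filament genes tested, Krt23, Krt7, Krt19 and Nes were higher and none lower, with a median of 0.87. Without cluster 5 the count was 1 in place of 4, and without cells of 2 or more hair cell UMIs it was also 1. Krt18 and Krt8, the keratins of simple epithelia, stood at 1094 against 750.9 CPM and 529.7 against 437.9 CPM.

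Among signalling genes, the Wnt list had 6 of 36 at least 2-fold higher and 9 lower, with a median of -0.30. Wif1, a secreted Wnt inhibitor, had 38.1 CPM in the members against 7.08 CPM. Wnt3 had 15.9 against 0.143 CPM, with 169 of its 170 UMIs in 6 cells of cluster 5, and a ratio of 0.699 without that cluster. The Wnt-responsive receptor gene Lgr5 had 1.03 CPM in the members against 16.6 CPM and the receptor gene Fzd4 9.83 against 79.7 CPM. In the retinoic acid list, 3 of 13 genes were higher and 1 lower, with a median of 0.48. Aldh1a1 had 185.5 against 73.8 CPM, the binding protein gene Crabp2 44.9 against 14.6 CPM, and Cyp26b1, which breaks retinoic acid down, was the lower one at 10.6 against 28.4 CPM.

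The list of BMP and TGF ligands, receptors and antagonists had 3 of 21 higher and 5 lower. Tgfb2 had 61.6 CPM in the members against 505.2 CPM, Inhba 7.49 against 70.7 CPM and Bmp2 3.56 against 13.5 CPM. Of 14 BMP targets and Smads none was 2-fold higher and Hey1 was lower, and Id1 stood at 650.8 CPM in the members and 611.8 CPM in P2 Sox2 cells. In the FGF list 4 of 22 were higher and 4 lower. The receptor gene Fgfr2 had 33.3 against 7.16 CPM and its target gene Etv5 61.9 against 25.3 CPM, while the ligand Fgf10 had 3.65 CPM in the members against 57.4 CPM, a ratio of 0.0636 that was 0.0356 without clusters 6, 8 and 9.

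Transcription factors of the otic regions were 5 higher, among them Meis2, a gene of the rule, and 5 lower of 33, with a median of 0.13. Gata2 had 118.3 CPM in the members against 24.0 CPM, a ratio of 4.92 (interval 4.36 to 5.57), the homeobox gene Hmx2 320.6 against 139.9 CPM, and Tbx1 13.2 against 0.859 CPM. Cluster 5 held 137 of the 141 Tbx1 UMIs, and without it the ratio was 0.466. Sox21, Prox1 and Isl1, factors of the sensory patch, were lower, with Isl1 at 29.8 CPM against 188.5 CPM. The IGF and fetal list had 5 of 22 higher, among them the binding protein gene Igfbp6 (28.9 against 7.16 CPM), and 3 lower, among them Igfbp3 (7.40 against 121.4 CPM). The matrix list had 6 of 31 higher, led by the fibronectin gene Fn1 (11.2 against 1.50 CPM, ratio 2.00 without cluster 5), and 4 lower. The guidance list had 5 of 32 higher and 6 lower, and the list of AP-1 and stress genes 2 of 25 higher and 1 lower, with Fos at 3101 CPM in the members and 3229 CPM in P2 Sox2 cells.

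Of 26 cell cycle genes tested, 15 were at least 2-fold higher in the members and none lower, with a median of 1.07. Without the 19 cells of cluster 10 the count was 5. Ube2c, of the mitotic ubiquitin system, had 88 of its 101 UMIs in cluster 10, and its ratio was 4.72 with the cluster and 0.635 without it. Ccnd2, a D-type cyclin, was spread over the members and had 202.6 CPM against 46.7 CPM. Of 11 cell cycle inhibitors none passed 2-fold, with Cdkn1c at 384.2 against 251.6 CPM.

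The comparison with E14 asked how cells of the same rule differ between the ages. The P2 members held more Slc26a4, Otol1, Tecta and the sodium pump gene Atp1b1, and less of Oc90, Tbx1, Esrrb and cell cycle genes. Of 11551 genes tested, 928 (8.03%) were at least 2-fold higher at P2 and 941 (8.15%) at least 2-fold lower, with a median log2 ratio of -0.02, and without clusters 6, 8 and 9 the counts were 875 and 949. The shares of 8.03% and 8.15% are the background for each list set against E14. Levels of other cells' markers differed between the ages as well. Mesenchymal markers summed to 35.7 CPM in the P2 members and to 1850 CPM in the E14 cells, where 10 of 12 markers reached 10 CPM, and to 21184 CPM in 4428 E14 mesenchymal cells. Red blood cell markers summed to 12.6 CPM at P2 and 4756 CPM at E14, and haemoglobin genes took 0.0393% of the whole P2 library and 5.22% of the E14 library. Hair cell markers summed to 306.4 CPM in the P2 members, 334.0 CPM in the E14 cells and 5283 CPM in P2 hair cells. Of these UMIs, the calmodulin-binding gene Pcp4 gave 1208 of 3273 in the P2 members and 5688 of 6704 in the E14 cells. Without Pcp4 the sums were 193.3 CPM in the P2 members, 50.6 CPM in the E14 cells and 3767 CPM in P2 hair cells. The part of these cells in the results was not tested.

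**Figure D5:**
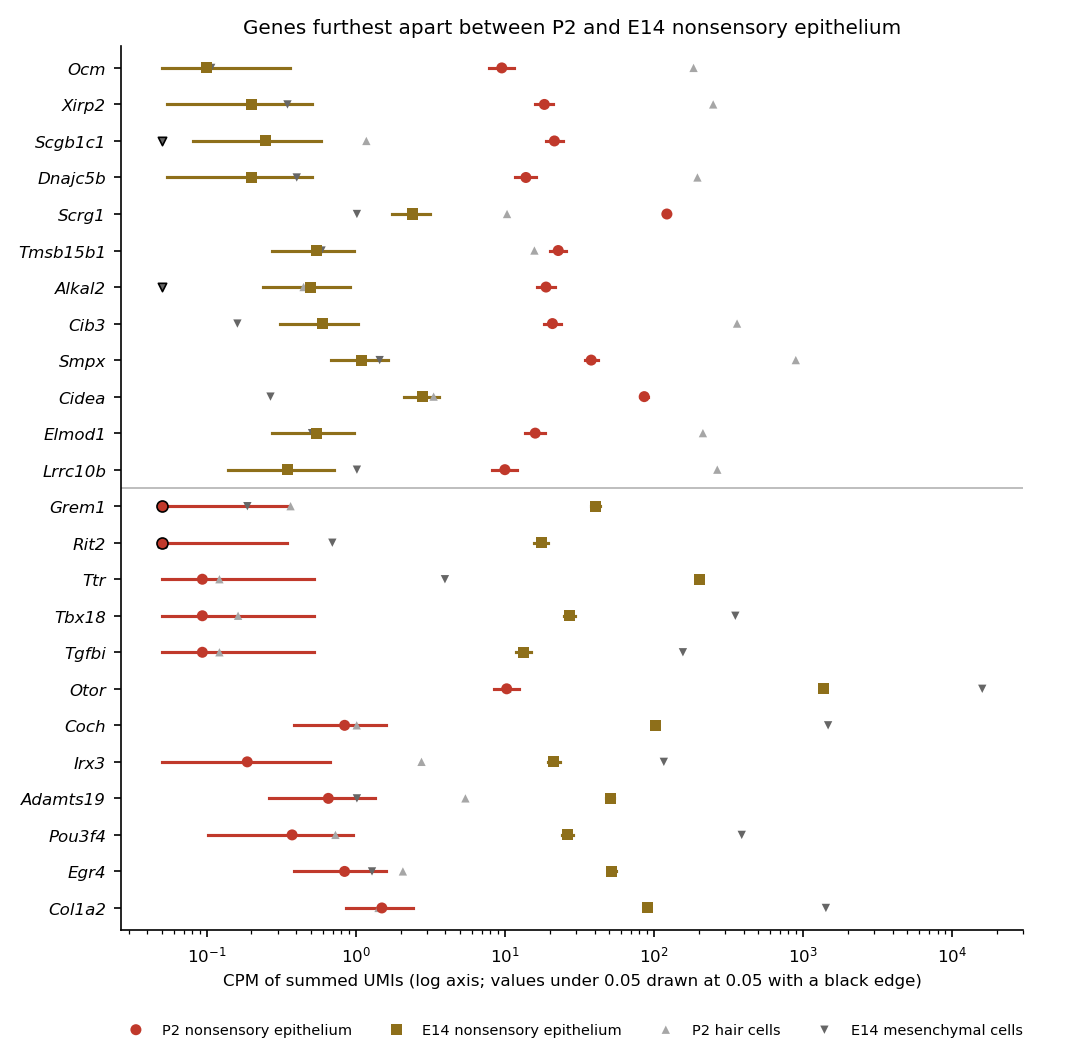
CPM (log axis) of the 12 genes with the highest and the 12 with the lowest ratio of P2 (circles) over E14 nonsensory epithelium (squares), with 95% Poisson intervals, and with P2 hair cells and E14 mesenchymal cells as triangles. For 7 of the upper 12 genes, such as Smpx, the P2 hair cells lie highest, and for 7 of the lower 12, such as Otor, the E14 mesenchymal cells do.

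The genes furthest apart between the ages were of 2 kinds. Some were highest in other cells. Smpx, a cytoskeletal gene of hair cells, had 38.0 CPM at P2 and 1.096 CPM at E14 but 895.9 CPM in P2 hair cells, and Xirp2, at 18.4 and 0.199 CPM, had 117 of its 197 UMIs in the hair cell-led cluster 9 (ratio 92.5, with 35.1 without clusters 6, 8 and 9 and 5.48 when the rule was applied to thinned cells). Otor, a secreted protein of otic mesenchyme, had 10.3 CPM at P2 and 1369 CPM at E14 but 15961 CPM in E14 mesenchymal cells, and its ratio of 0.00753 was 0.0280 without the highest doublet scores. Others stood higher in the nonsensory cells than in P2 hair cells and E14 mesenchymal cells. P2 Sox2 cells were not part of this ranking. Scrg1 had 122.3 CPM at P2 and 2.39 CPM at E14 (ratio 51.1, interval 38.3 to 69.7), with 10.4 CPM in P2 hair cells, and was found in 49.3% of thinned P2 members and 1.42% of E14 cells. Cidea, a protein of lipid droplets, had 86.2 and 2.79 CPM, and Alkal2 18.9 and 0.498 CPM. Of the lower genes, the BMP antagonist gene Grem1 had 0 UMIs at P2, which allows up to 0.345 CPM, and 40.8 CPM at E14, against 0.188 CPM in E14 mesenchymal cells. Ttr, which carries thyroid hormone and retinol, had 1 UMI at P2 and 202.4 CPM at E14, and the metalloprotease gene Adamts19 0.655 and 51.1 CPM.

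Otoconia and gel genes differed in both directions. Of 17 tested, 7 were at least 2-fold higher at P2 and 2 lower, with a median log2 ratio of 0.86. Oc90 had 2482 CPM at P2 and 10602 CPM at E14, a ratio of 0.234 (interval 0.231 to 0.237), with per-cell medians of 17.6 and 73.5 UMIs per 10000. Otol1 had 1260 CPM at P2 and 123.2 CPM at E14, a ratio of 10.2 (interval 9.80 to 10.7), and was found in 84.0% of thinned members and 23.4% of E14 cells. Tecta had 452.5 and 44.7 CPM. Other P2 cells held both genes, with Otol1 at 560.7 CPM in P2 hair cells and 1970 CPM in P2 Sox2 cells, and Tecta at 173.4 and 483.9 CPM. Tectb was also higher, at 47.7 and 2.39 CPM, but P2 hair cells held 544 CPM of it and P2 Sox2 cells 1262 CPM. When genes highest in P2 hair cells or E14 mesenchymal cells were left out, 3 of this list remained higher.

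Slc26a4 had 177.8 CPM at P2 and 19.6 CPM at E14, a ratio of 9.08 (interval 8.14 to 10.2). It led a transport list in which 5 of 23 genes were at least 2-fold higher and 4 lower. Aqp6 had 9.55 and 2.19 CPM. Of the lower genes, Car3, Aqp1 and Car14 were highest in E14 mesenchymal cells, with Car3 at 27.9 CPM at P2, 190.4 CPM at E14 and 2297 CPM in those cells. The Car3 ratio of 0.147 was 1.199 with no limit on Zpld1. In the potassium list 4 of 18 were higher and 2 lower, led by the channel gene Kcnj16 (11.5 and 0.997 CPM) and Atp1b1 (600.0 and 66.3 CPM, ratio 9.05). Kcne1 stood at 34.5 CPM at P2 and 44.0 CPM at E14 and so was within 2-fold, but it was found in 2.46% of thinned members (interval 1.41 to 3.96) and 11.5% of E14 cells (interval 9.67 to 13.5). Esrrb had 7.77 and 63.7 CPM and was found in 2.00% and 16.2% of the thinned cells.

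Of 37 otic transcription factors tested, 6 were at least 2-fold higher at P2 and 14 lower, with a median of -0.33. Eya1, needed for early ear growth, had 117.3 CPM at P2 and 26.5 CPM at E14. Tbx1 had 13.2 and 120.4 CPM and was found in 3.38% of thinned members against 46.2% of E14 cells. Otx2, a homeobox gene, had 0 UMIs at P2 and 26.1 CPM at E14, and Lmx1a, a gene of the rule, had 24.2 and 71.1 CPM. Gata2 was within 2-fold, at 118.3 and 129.9 CPM. Among these lower genes, Irx3 and Nr2f1 were highest in E14 mesenchymal cells.

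Of the signalling lists, retinoic acid had 5 of 13 genes at least 2-fold higher at P2 and 1 lower, with a median of 0.50. Aldh1a3 had 711.3 CPM at P2 and 296.1 CPM at E14, Aldh1a1 185.5 and 69.9 CPM, and Rdh10 137.8 and 52.0 CPM, while Crabp2 was lower at 44.9 and 110.1 CPM. In the Wnt list 7 of 38 were higher and 10 lower. Sfrp1 had 1971 and 381.6 CPM, the ligand Wnt6 6.18 and 99.3 CPM, and Rspo3 116.1 and 236.4 CPM. The BMP and TGF list had 2 of 26 higher, among them Sostdc1 (135.3 and 47.9 CPM), and 8 lower, among them Bmp2 (3.56 and 24.6 CPM) and the pseudoreceptor gene Bambi (27.7 and 120.4 CPM). The Notch list had 2 of 21 higher and 6 lower, among them Hes1 (29.7 and 169.4 CPM) and Notch2 (4.96 and 46.9 CPM). Of 21 FGF genes 3 were higher and 4 lower, among them the ligand Fgf9 (22.1 and 74.8 CPM).

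Of 41 cell cycle genes, 35 were at least 2-fold lower at P2 and none higher, with a median of -1.88. Ube2c had 9.46 CPM at P2 and 127.3 CPM at E14, Birc5, an inhibitor of cell death in mitosis, 8.33 and 84.0 CPM, and Cenpf 20.4 and 90.1 CPM. Cluster 10 held most of the P2 UMIs of Ube2c, Birc5 and Cenpf, but 21 of the 239 of the replication gene Mcm7, and without it Ube2c had a ratio of 0.00999 in place of 0.0743. E14 mesenchymal cells held more of them again, with 194.2 CPM of Ube2c. None was left when genes highest in P2 hair cells or E14 mesenchymal cells were taken out. That step drops such genes from the comparison whatever their ratio, so it cannot decide whether the nonsensory cells differ in them. Ccnd1 and Ccnd2, cyclins that act early in the cycle, were within 2-fold. Of 13 inhibitors 3 were lower, and Cdkn1c stood at 384.2 CPM at P2 and 757.5 CPM at E14.

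Most of the remaining lists held more lower than higher genes at P2. Junction genes had 1 of 33 higher and 6 lower, among them Cldn6 (85.9 and 236.9 CPM), filament genes 2 of 9 lower, and matrix genes 5 of 33 higher and 9 lower. Of the matrix genes Fn1 had 11.2 CPM at P2 and 390.4 CPM at E14, and Col4a4, a basement membrane collagen, 19.2 and 1.25 CPM. Guidance genes had 3 of 39 higher and 11 lower, with the netrin gene Ntn1 at 5.06 and 59.0 CPM, and IGF and fetal genes 4 of 24 higher and 6 lower, with Igfbp4 at 695.1 and 292.4 CPM and the imprinted RNA H19 at 35.2 and 106 CPM. BMP targets and Smads had 3 of 16 lower, the sodium list 1 of 9, and AP-1 and stress genes 3 of 27 higher and 5 lower, with the chaperone gene Hspb1 at 148.6 and 29.5 CPM. Of 6 gap junction genes, Gjb6 and Gjb2 were higher and Gja1 and Gjc1 lower, and the Gjb2 ratio of 2.19 was 1.94 without clusters 6, 8 and 9. Gja1 and Gjc1 were highest in E14 mesenchymal cells, at 37.0 and 61.7 CPM.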

How the data were processed

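The authors made the deposited counts with Cell Ranger, version 3.1.0 by the submitters' notes, as whole UMI counts per gene and barcode. The methods give genome GRCm39 while the labels name GRCm39 and mm10, which was not settled, so no coordinates are given. The members and the 20 lists were chosen with earlier results of these data known.

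UMIs were summed over the cells of a group and given as CPM. A gene was compared with at least 100 UMIs in both groups together and called higher or lower from a ratio of 2 or 0.5. Named genes were the 12 with the largest ratio each way (at least 100 UMIs and 10% of cells, leaving out genes of the rule, mitochondrial, ribosomal and haemoglobin genes), the most abundant and most different genes of each list, and markers. Genes named for clusters lead them or were picked after their values were seen.

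Cells were thinned to 7000 UMIs, which kept at least 75% of each group compared. Clusters came from 1500 variable genes, 20 components, 15 neighbours and the Leiden method at resolution 0.8 (scanpy 1.11.5, leidenalg 0.10.2). Doublets were scored after the manner of Scrublet and kept, and removing the highest scores (0.8% per 1000 barcodes) was an alternative, as were changes to the rule, filters, UMI minimum and weighting. The ratio step was tested on simulated data.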

Additional observations from a re-analysis of the deposited data

How the results depend on the processing

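The rule decides much. Asking for both Lmx1a and Meis2 left 183 members, and 520 genes higher and 606 lower against E14, and Sox2 and Pou4f3 at 0 left 478 members. With at least 30 UMIs per gene, 857 genes were higher against P2 Sox2 cells and 1496 lower against E14. With no minimum, 1798 were higher and 1229 lower against P2 Sox2 cells, and 2242 higher and 1986 lower against E14. At resolution 0.4 there were 7 clusters, not 11. Applied to thinned cells, the rule gave 659 members, moved 73 of the 212 named ratios against P2 Sox2 cells by over 1.5 times, and reversed Krt7 (0.824) and Dlk1 (1.04). Removing the highest doublet scores moved 19 named P2 over E14 ratios by over 1.5 times, among them Wif1 (8.84 in place of 4.004), and ended 5 calls, those of Nbl1 (0.725), Inhba (1.86), Igfbp7 (0.647), Nid1 (0.580) and Bdnf (1.995). With no limit on Zpld1 the P2 over E14 ratio of Car3 was 1.199.

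The other alternatives were chosen after seeing the data. Leaving out genes highest in P2 hair cells or E14 mesenchymal cells gave 540 higher and 420 lower against E14. Such genes were dropped from the comparison whatever their ratio. Leaving out cluster 5 reversed Tbx1 (0.466) and Wnt3 (0.699) against P2 Sox2 cells, and leaving out cluster 10 reversed Ube2c (0.635), Cenpf (0.693) and Birc5 (0.295). Leaving out clusters 6, 8 and 9 ended 4 calls against E14, those of Anks1b (1.45), Gjb2 (1.94), Inhba (1.82) and Bdnf (1.35). The cause of each shift beyond the cells or genes left out was not tested. No paired analysis was possible because each age has 1 library. Genes under 100 UMIs are beyond the depth of these counts.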
